A study of Homo sapiens with 2 samples.

Results

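The RNA-binding proteins of the RBFOX, NOVA, ELAVL and PTBP families choose which exons of neuronal transcripts are kept. The genes described here are RBFOX1, RBFOX2, RBFOX3, NOVA1, NOVA2, ELAVL2, ELAVL3, ELAVL4, PTBP1 and PTBP2. They were taken by name, and all 10 were found among the 62704 genes of each of the 2 libraries. Their counts were followed from barcodes that carry progenitor markers to barcodes that carry neuron markers.

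Both libraries were made by split-seq from brain organoids of H9, a human embryonic stem cell line, so they describe 1 genetic background. The library of cells pools control organoids (CO) of days 45, 55 and 70, organoids dissociated at day 45 and reaggregated (DISS) of days 48, 55 and 70, and organoids freed of Matrigel on day 13 and held in 3% agarose (CONS) of day 55. The library of nuclei was a control experiment. The study's methods describe it as nuclei of day 45 CO, taken from whole organoids and from dissociated ones, while its treatment label reads Control/Dissociated/Embed. All barcodes of a library carry the same sample name, so neither condition, day nor organoid can be assigned to a barcode, and each library was treated as 1 sample. The libraries also differ in compartment, day and condition, whose parts cannot be told apart, so their values are given side by side and the differences between them were not tested.

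Splicing regulators of these families bind short motifs in introns and exons and act as repressors or activators depending on where they bind. PTBP1 is the form of polypyrimidine tract binding protein found in most dividing cells, where it represses neuronal exons, and PTBP2 is its neural paralog. RBFOX proteins recognise GCATG, NOVA proteins recognise clusters of YCAY and the neuronal ELAVL proteins (HuB, HuC and HuD) recognise U-rich and AU-rich elements. RBFOX3 is the antigen known as NeuN, which is used to mark mature neurons, and ELAVL3 and ELAVL4 are likewise used as neuronal markers.

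The best known link between these families lies within PTBP2 itself. Exon 10 of PTBP2 is repressed by PTBP1, and skipping it shifts the reading frame and sends the transcript to decay. In GRCh38 this exon lies on the plus strand of chromosome 1, chr1:96806419-96806452, and has 34 bases, a length that is not a multiple of 3. Of the annotated transcripts that span it, 12 hold the exon, of which 9 are protein coding and 1 is marked for nonsense-mediated decay. The other 6 lack it, of which 0 are protein coding and 3 are marked for decay. The region is shown because the PTBP2 counts reported here cannot see it: a transcript with the exon and one without it add to the same gene count. The first line has the exon in capitals, at chr1:96806299-96806492, and the second has the bases before it at chr1:96806299-96806418, with TCTT, a core of the PTBP1 motif, in capitals.
PTBP2 exon 10 with flanks: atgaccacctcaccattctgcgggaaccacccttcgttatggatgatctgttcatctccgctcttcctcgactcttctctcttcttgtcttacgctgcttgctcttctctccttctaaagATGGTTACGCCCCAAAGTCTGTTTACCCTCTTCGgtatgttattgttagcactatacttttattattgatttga
PTBP2 bases before exon 10: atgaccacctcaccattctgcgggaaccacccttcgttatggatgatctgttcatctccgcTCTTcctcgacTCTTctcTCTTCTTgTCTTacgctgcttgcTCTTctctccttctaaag

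TCTT was counted on the strand of the gene, with overlapping matches allowed, and occurs 6 times in these 120 bases. Of 166325 annotated internal exons, 495 (0.298%) have at least as many in the 120 bases before them, and the median exon has 1. A match is a description of the letters and not of binding.

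Upstream sequences are shown for ELAVL4, ELAVL2 and RBFOX3, whose midpoint between the ends came earliest among the 7 genes that were higher at the neuron end in nuclei. Each is the 250 bases before a RefSeq transcript start (GRCh38), on the strand of the gene, with the E-boxes CAGATG and CAGCTG (letters bound by proneural factors of the NEUROG and NEUROD kind) in capitals on either strand. They lie at chr1:50108670-50108919 on the plus strand, chr9:23826241-23826490 on the minus strand and chr17:79531921-79532170 on the minus strand.
ELAVL4 promoter: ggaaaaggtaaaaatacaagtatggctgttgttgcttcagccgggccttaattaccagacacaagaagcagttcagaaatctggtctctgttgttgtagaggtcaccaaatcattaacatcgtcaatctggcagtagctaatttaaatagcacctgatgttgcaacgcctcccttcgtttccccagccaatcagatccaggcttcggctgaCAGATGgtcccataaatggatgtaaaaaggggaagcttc
ELAVL2 promoter: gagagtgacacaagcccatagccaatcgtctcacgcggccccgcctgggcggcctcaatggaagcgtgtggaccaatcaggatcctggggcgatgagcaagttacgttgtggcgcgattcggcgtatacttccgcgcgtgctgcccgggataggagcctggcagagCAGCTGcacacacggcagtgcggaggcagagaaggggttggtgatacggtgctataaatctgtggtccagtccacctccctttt
RBFOX3 promoter: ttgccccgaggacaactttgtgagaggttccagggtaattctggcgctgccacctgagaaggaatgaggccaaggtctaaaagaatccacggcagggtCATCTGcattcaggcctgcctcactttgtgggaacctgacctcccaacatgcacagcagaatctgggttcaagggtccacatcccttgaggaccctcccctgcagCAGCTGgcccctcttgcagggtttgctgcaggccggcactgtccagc

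These windows were chosen because they hold an E-box, so their matches are no result. Over all windows of the members, either E-box was present in 3 of 7 for ELAVL4, 1 of 6 for ELAVL2, 5 of 12 for RBFOX3, 3 of 5 for RBFOX1 and 1 of 1 for PTBP2. None was present in the 3 windows of NOVA1, the 1 of NOVA2 or the 2 of PTBP1, and RBFOX2 and ELAVL3 had no window in the table. CAGATG occurs in 12.2%, CAGCTG in 14.0% and either in 24.3% of all 35116 windows of this length. The 2 motifs share no position when both match.

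A barcode counted as a cell or nucleus if over 500 genes and over 1000 transcripts were found in it and no more than 20% of its counts were mitochondrial. This left 20178 cells of 1303455 barcodes, with a median of 2615 transcripts, and 14228 nuclei of 197446, with a median of 3890. Depth was uneven: the 1533 cells (7.60%) with more than 20000 transcripts held 49.6% of the counts, against 9.58% in 211 nuclei, and 99 kept barcode names occurred in both libraries, as well combinations can.

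Each barcode was placed by an index from 0 to 1, the share of neuron markers (DCX, STMN2, SYT1, NEUROD6, GRIA2, MYT1L, MAPT and SNAP25) in the sum of these and of progenitor markers (SOX2, PAX6, GLI3, SLC1A3, VIM, NES, HES1 and PTPRZ1), with each list of 8 genes divided by its mean. Barcodes needed 5 marker counts. 5 ranges of width 0.2 run from the progenitor end (range 1) to the neuron end (range 5). They held 3178, 3694, 4478, 4050 and 2503 cells and 4056, 2567, 1231, 1508 and 3184 nuclei. 2275 cells (11.3%) and 1682 nuclei (11.8%) could not be placed.

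The index is a cut of a continuous score, not a cell type. Between 613 and 827 cells and between 242 and 816 nuclei lay within 0.02 of each inner edge. Second lists that share no gene with the first moved along the order in the same way: 8 of 8 progenitor genes of the second list were lower and 8 of 8 neuron genes higher at the neuron end in both libraries. Their summed levels went from 16.9 to 3.18 (progenitor) and from 3.03 to 15.9 counts per 10000 (neuron) in cells, and from 23.1 to 2.20 and from 2.91 to 20.4 in nuclei. Progenitor and neuron markers of the brain were thus both present, as the organoid labels ask. Other cell types lay along the order too, and the 7 choroid plexus markers summed to 26.5, 32.4, 21.0, 11.6 and 4.79 counts per 10000 over the 5 ranges of cells and to 16.8, 27.6, 39.5, 33.6 and 10.3 in nuclei.

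Most of the neuronal regulators were higher where neuron markers were high. At a 2-fold limit between the ends, 6 of the 10 genes were higher at the neuron end in cells (RBFOX1, RBFOX3, NOVA2, ELAVL2, ELAVL3 and ELAVL4), and 7 in nuclei, where RBFOX2 joined them. When every barcode was thinned to 1000 transcripts before placing it, 3 were higher in cells (RBFOX1, RBFOX3 and ELAVL2) and 6 in nuclei, without ELAVL3. Among all 21014 genes with at least 50 counts over both ends in cells, 8.74% were as much higher, and 11.9% of 17159 in nuclei. No member was 2-fold lower in either library, against 12.0% and 16.1% of all genes. The median log2 ratio over the 10 members was 1.12 in cells and 1.18 in nuclei, and over all these genes 0.01 and -0.15. All 10 passed the limit of 50 counts in both libraries. With 1 sample per library there is no test, and intervals given below are exact 95% intervals that cover counting error only. The SD over the 8 sub-libraries of cells or the 2 of nuclei measures technical spread.

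**Figure D1:**
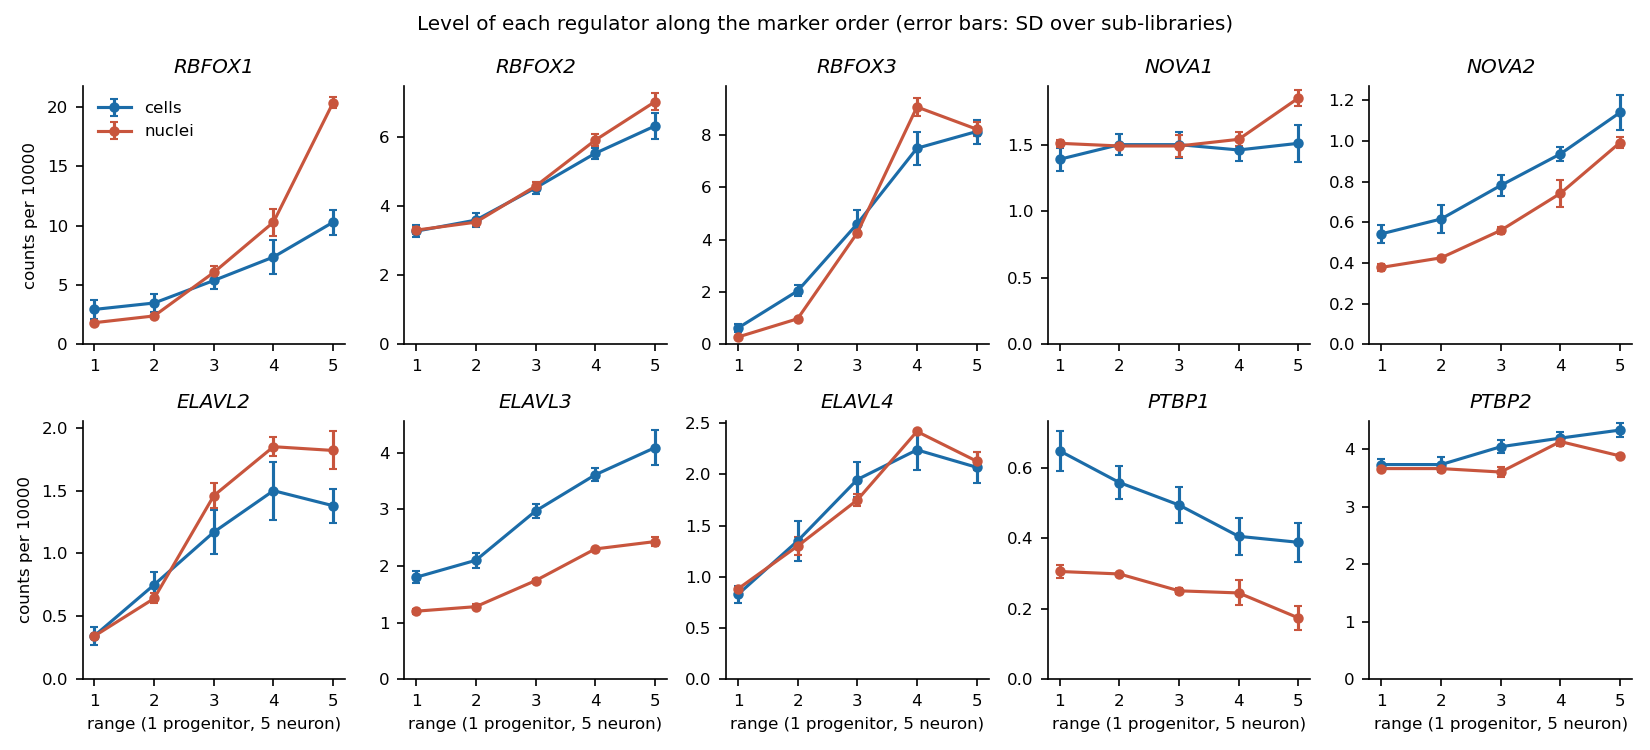
Level of each of the 10 genes, in counts per 10000 on a linear axis that differs between panels, in the 5 ranges of the marker index for cells and nuclei, with error bars for the SD over sub-libraries. RBFOX3 goes from 0.620 to 8.14 in cells and from 0.276 to 8.23 in nuclei, whereas PTBP2 stays between 3.60 and 4.33 and PTBP1 ends below where it begins.

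RBFOX3 had the steepest course. Its level over ranges 1 to 5 was 0.620, 2.04, 4.61, 7.50 and 8.14 counts per 10000 in cells, and 0.276, 0.975, 4.26, 9.08 and 8.23 in nuclei. The fold between the ends was 13.1 in cells (log2 ratio 3.71, interval 3.64 to 3.79, SD 0.34 over 8 sub-libraries) and 29.8 in nuclei (log2 ratio 4.90, interval 4.77 to 5.02). With every barcode thinned to 1000 transcripts, the log2 ratio was 2.46 (2.28 to 2.65) in cells and 4.78 (4.43 to 5.15) in nuclei. The first barcoding round of the cells had 48 wells. Of these, 23 had 20 or more barcodes at both ends, and only these are used here and below. In each of the 23, and in all 12 wells of the nuclei, RBFOX3 was higher at the neuron end. The log2 ratio ranged from 2.08 to 5.02 over the wells of cells and from 3.92 to 5.91 over those of nuclei. No source used here says which organoids a well holds, or whether wells share one, so the wells are given as counts, with no test over them, and do not compare conditions. In nuclei RBFOX3 was highest in range 4, one step before the neuron end.

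RBFOX1 is a neuronal regulator whose targets include ion channels and synaptic genes. It was counted at both ends and had its largest steps, in counts per 10000, late in the order. Its level was 2.94, 3.48, 5.38, 7.36 and 10.3 counts per 10000 over the ranges of cells and 1.82, 2.39, 6.06, 10.3 and 20.4 over those of nuclei. The log2 ratio was 1.81 (1.77 to 1.84) in cells and 3.49 (3.44 to 3.54) in nuclei. The spread in cells was the widest of the 10 genes, with an SD of 0.39 and sub-library values from 1.06 to 2.26, while the 2 sub-libraries of nuclei gave 3.44 and 3.55. RBFOX1 was also lower at the neuron end in 3 of 23 wells of cells, down to a log2 ratio of -0.88, and in 0 of 12 wells of nuclei.

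A small group at the progenitor end of the cells held many of the RBFOX1 counts. Barcodes of a cortical hem-like cluster, named from 4 hem markers and led by PAX3 and SV2B, made up 114 of the 3178 cells there (3.59%) but held 2362 of the 7331 RBFOX1 counts, a level of 22.4 counts per 10000 (21.5 to 23.3). Radial glia-like and dividing radial glia-like cells at the same end had 1.82 and 1.71. In nuclei, 81 choroid plexus-like barcodes at the progenitor end had 11.3 counts per 10000 and radial glia-like ones 1.11. RBFOX3 in these groups was 0.805 in the hem-like cells and 0.227 in the choroid plexus-like nuclei. Without the hem-like cluster, an alternative chosen after the data were seen, the log2 ratio of RBFOX1 in cells was 2.30 (2.26 to 2.35). The part of this cluster in the spread over sub-libraries and wells was not tested. When instead choroid plexus-like and unnamed clusters were left out, a choice made at the same stage, it was 2.08 in cells and 4.39 in nuclei.

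RBFOX2, the family member also expressed widely outside the nervous system, was counted in all 5 ranges and differed less. Its level was 3.27, 3.59, 4.52, 5.52 and 6.31 counts per 10000 in cells and 3.30, 3.53, 4.57, 5.90 and 7.01 in nuclei. The log2 ratio of 0.95 (0.91 to 0.99, SD 0.10) in cells lies just inside 2-fold and that of 1.09 (1.04 to 1.13) in nuclei just outside it. It was higher at the neuron end in 23 of 23 and 12 of 12 wells. The ratios of the 2 libraries thus lie close together, on either side of the limit.

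The makeup of RBFOX counts turned over along the order. RBFOX2 gave 47.8% of the family's counts at the progenitor end and 25.5% at the neuron end in cells, and 61.1% and 19.7% in nuclei. RBFOX3 went from 9.07% to 32.9% in cells and from 5.13% to 23.1% in nuclei, with its largest shares in range 4 (36.8% and 35.9%). RBFOX1 held 43.1% and 41.6% at the ends in cells and 33.7% and 57.2% in nuclei. Without the hem-like cells, which were left out after the data were seen, its share at the progenitor end of the cells was 34.9% (34.1 to 35.7), and that of RBFOX2 54.8%. Because the genes differ in length, these shares are compared along the order and not between genes.

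**Figure D2:**
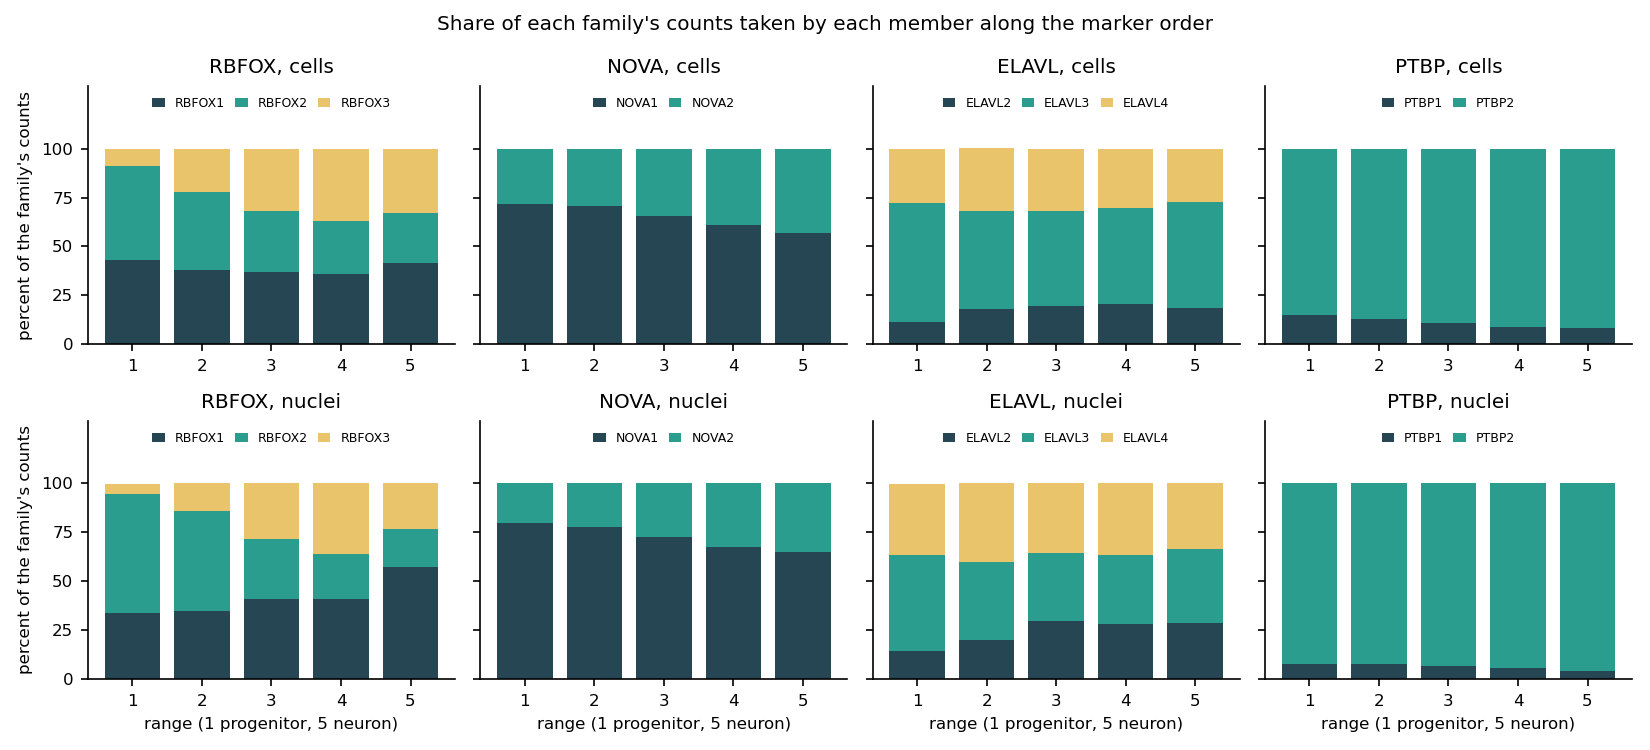
Share of each family's counts, in percent, held by each member in the 5 ranges of the marker index, for cells and for nuclei as stacked bars that sum to 100. RBFOX3 widens from 9.07% to 32.9% in cells while RBFOX2 narrows from 47.8% to 25.5%, and PTBP1 narrows from 14.8% to 8.24%.

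The NOVA genes differed from each other. NOVA1 and NOVA2 are antigens of a paraneoplastic neurologic disorder and control exons of synaptic transcripts, NOVA2 mainly in the cortex. NOVA2 was 0.543, 0.616, 0.781, 0.936 and 1.14 counts per 10000 in cells and 0.378, 0.425, 0.560, 0.742 and 0.992 in nuclei. It climbed in each step, with a log2 ratio of 1.07 (0.97 to 1.17) in cells and 1.39 (1.26 to 1.52) in nuclei. In cells 2-fold falls inside the interval and inside the sub-library values, which were 0.86 to 1.30. NOVA1 was nearly level, at 1.39, 1.50, 1.50, 1.46 and 1.51 counts per 10000 in cells and 1.51, 1.49, 1.49, 1.54 and 1.85 in nuclei.

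The log2 ratio of NOVA1 was 0.12 (0.04 to 0.19, SD 0.09) in cells and 0.29 (0.22 to 0.37) in nuclei, and it was lower at the neuron end in 7 of 23 wells of cells and 2 of 12 of nuclei. In nuclei this small difference came with particular clusters: without choroid plexus-like and unnamed clusters the log2 ratio was -0.25. As a result the NOVA2 share of NOVA counts went from 28.1% to 42.9% in cells and from 20.0% to 34.8% in nuclei.

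The 3 neuronal ELAVL genes were all higher at the neuron end, with ELAVL2 (HuB) furthest apart. ELAVL2 was 0.345, 0.751, 1.17, 1.50 and 1.38 counts per 10000 in cells and 0.343, 0.642, 1.46, 1.85 and 1.82 in nuclei. Its log2 ratio was 2.00 (1.88 to 2.11, SD 0.35) in cells and 2.40 (2.28 to 2.53) in nuclei. ELAVL4 (HuD) had the same shape, with its highest level before the neuron end: 0.827, 1.35, 1.95, 2.24 and 2.07 in cells and 0.881, 1.30, 1.75, 2.42 and 2.13 in nuclei. The intervals of ranges 4 and 5 do not overlap for ELAVL4 in either library, though in cells the SD over sub-libraries was 0.199 in range 4 and 0.152 in range 5, close to the size of the difference. For ELAVL2 they do not in cells (1.46 to 1.54 and 1.33 to 1.43) and do in nuclei (1.76 to 1.94 and 1.75 to 1.88), and in cells the SDs over sub-libraries (0.232 and 0.134) exceed the difference.

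ELAVL3 (HuC) was highest in the last range, with 1.80, 2.10, 2.97, 3.61 and 4.09 counts per 10000 in cells and 1.20, 1.28, 1.74, 2.30 and 2.43 in nuclei. The log2 ratio was 1.18 (1.13 to 1.24) for ELAVL3 and 1.33 (1.25 to 1.40) for ELAVL4 in cells, and 1.01 (0.94 to 1.09) and 1.28 (1.19 to 1.36) in nuclei. In nuclei the intervals of ELAVL3 in ranges 4 and 5 overlap (2.21 to 2.40 and 2.35 to 2.50), and that of its ratio includes 2-fold. All 3 ELAVL genes were higher at the neuron end in 23 of 23 wells of cells and 12 of 12 of nuclei.

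The PTBP pair showed the opposite sign only for PTBP1. PTBP1 was 0.649, 0.559, 0.495, 0.406 and 0.389 counts per 10000 in cells and 0.306, 0.299, 0.251, 0.245 and 0.174 in nuclei. Its log2 ratio was -0.74 (-0.87 to -0.61, SD 0.26) in cells and -0.81 (-1.02 to -0.60) in nuclei, a level 1.67-fold and 1.75-fold lower at the neuron end and so short of 2-fold. It was lower there in 22 of 23 wells of cells and 11 of 12 of nuclei. In 13 of the 23 and 2 of the 12 it was lower by 2-fold or more. The median log2 ratio within wells was -1.01 in cells, past the 2-fold limit, and -0.75 in nuclei. The counts behind this are few, 278 at the neuron end of the nuclei.

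PTBP2 was close to level, at 3.73, 3.73, 4.04, 4.19 and 4.33 counts per 10000 in cells and 3.66, 3.66, 3.60, 4.13 and 3.88 in nuclei. The log2 ratio was 0.21 (0.17 to 0.26, SD 0.06) in cells and 0.08 (0.03 to 0.13) in nuclei. Whether the PTBP2 transcripts carry exon 10 cannot be read from gene counts. DLG4, which codes for the synaptic scaffold PSD-95 and is a known target of PTBP repression, had log2 ratios of 0.41 (0.31 to 0.52) in cells and 0.27 (0.15 to 0.38) in nuclei, below 2-fold. The PTBP1 share of PTBP1 and PTBP2 counts went from 14.8% (14.1 to 15.5) to 8.24% (7.67 to 8.85) in cells and from 7.70% (7.11 to 8.32) to 4.30% (3.82 to 4.82) in nuclei.

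**Figure D3:**
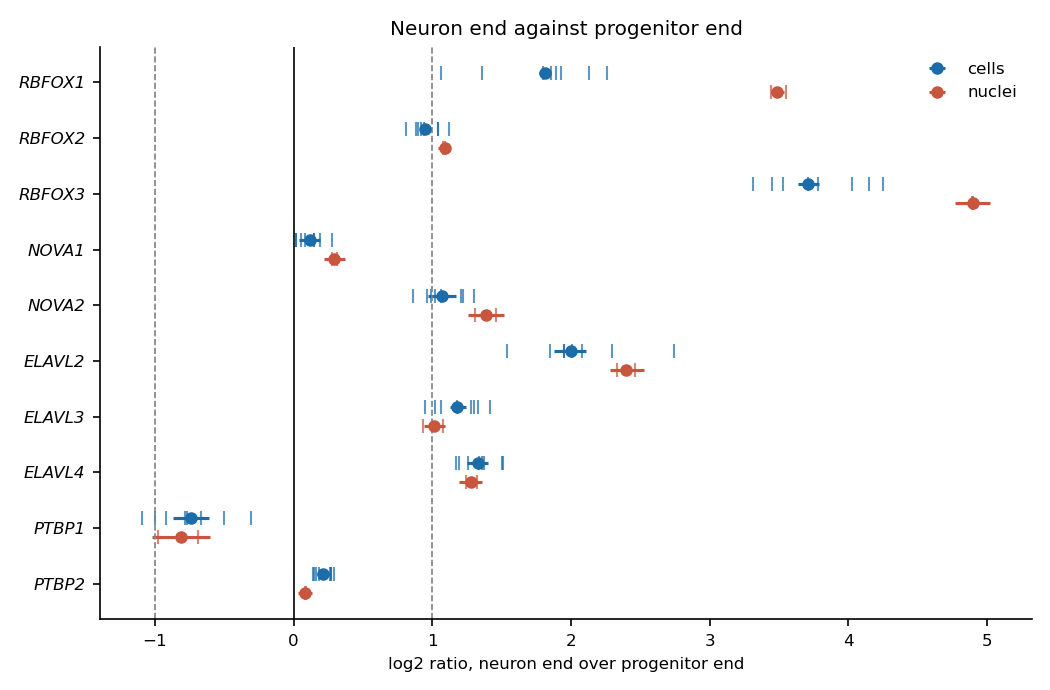
Log2 ratio of the neuron end to the progenitor end for each gene in cells and nuclei, with 95% counting intervals as bars, each sub-library as a tick and dashed lines at 2-fold in either direction. RBFOX3 lies furthest right (3.71 and 4.90), PTBP1 is the one gene left of 0 (-0.74 and -0.81), and the sub-libraries of cells spread most for RBFOX1.

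The genes that were higher at the neuron end did not reach their midpoint at the same index. The index at which the level crossed the mean of its end values, by straight lines between ranges, was 0.334 for ELAVL4, 0.353 for ELAVL2, 0.482 for RBFOX3, 0.494 for ELAVL3, 0.555 for RBFOX2, 0.577 for NOVA2 and 0.625 for RBFOX1 in cells. In nuclei these values were 0.392, 0.407, 0.500, 0.526, 0.587, 0.638 and 0.716, which is the same order of the 7 genes. Neighbours such as ELAVL4 with ELAVL2 and RBFOX3 with ELAVL3 lay within 0.03 of each other and no interval was computed, so their order is not resolved. On this linear scale there was a wide gap between RBFOX1 and the ELAVL2 and ELAVL4 pair, which was near its full level by range 3 or 4. RBFOX1 had its largest steps in counts per 10000 at the end. As a fold, its step from range 2 to range 3 was larger than its last step. In cells these were 3.48 to 5.38 and 7.36 to 10.3, and in nuclei 2.39 to 6.06 and 10.3 to 20.4. The order may differ on a log scale, where midpoints were not computed. PTBP1 crossed its midpoint at 0.426 in cells and 0.713 in nuclei.

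Single barcodes were compared after thinning each to 1000 transcripts, which left out none of the kept ones. At the progenitor end, RBFOX3 was detected in 7.90% of cells (6.98 to 8.89) and 2.76% of nuclei (2.28 to 3.31), and at the neuron end in 45.7% and 49.0%. Before thinning the shares were 27.4% and 76.3% in cells and 7.94% and 79.5% in nuclei. Choroid plexus-like barcodes, an epithelium that should lack RBFOX3, had it in 6.83% of cells (5.55 to 8.31, median 5947 transcripts) and 2.28% of nuclei (0.989 to 4.44, median 9653 transcripts). The intervals of the progenitor-end shares of RBFOX3 overlap these, so no expression is read from those shares.

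The shares of ELAVL2 overlapped as well, with 3.59% (2.97 to 4.29) of progenitor-end cells against 2.79% (1.98 to 3.81) of choroid plexus-like cells, and 3.08% against 2.85% of nuclei. At the neuron end ELAVL2 was detected in 13.0% of cells and 14.4% of nuclei. ELAVL3 and ELAVL4 differed from this: in progenitor-end cells they were detected in 17.5% (16.2 to 18.9) and 8.50% (7.55 to 9.52), above the 7.35% (6.02 to 8.86) and 2.65% (1.86 to 3.64) of choroid plexus-like cells, and in nuclei in 11.4% and 7.91% against 1.71% and 1.42%. By level, both RBFOX3 and ELAVL2 in progenitor-end cells were lower in choroid plexus-like barcodes (0.318, 0.264 to 0.381, and 0.162, 0.124 to 0.208 counts per 10000) than in dividing radial glia-like ones (0.431, 0.390 to 0.474, and 0.369, 0.331 to 0.409). In progenitor-end nuclei they were not: RBFOX3 was 0.227 (0.139 to 0.350) in choroid plexus-like barcodes and 0.209 (0.178 to 0.244) in dividing radial glia-like ones, and ELAVL2 0.340 (0.230 to 0.486) and 0.282 (0.245 to 0.322), with overlapping intervals.

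For the remaining genes the detection followed the levels. RBFOX1 went from 20.2% to 41.9% in cells and from 11.4% to 51.5% in nuclei, RBFOX2 from 27.8% to 42.3% and from 25.9% to 47.8%, and NOVA2 from 5.10% to 9.59% and from 3.82% to 9.42%. NOVA1 was at 11.7% and 12.9% in cells and 12.7% and 14.5% in nuclei, PTBP2 at 33.0% and 34.4% and at 29.1% and 30.9%. PTBP1 was found in 6.83% (5.98 to 7.76) of progenitor-end cells and 4.71% (3.92 to 5.62) of neuron-end cells, and in 3.45% (2.91 to 4.06) and 2.17% (1.69 to 2.73) of nuclei. RBFOX1 in choroid plexus-like barcodes, at 33.7% of cells and 41.6% of nuclei, lay above its own progenitor-end share.

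Neuron-end barcodes more often held several of the regulators at once. Of the 8 RBFOX, NOVA and ELAVL genes, a thinned barcode held a mean of 1.02 at the progenitor end and 2.13 at the neuron end in cells, and 0.789 and 2.26 in nuclei. None of the 8 was detected in 33.8% of progenitor-end and 7.91% of neuron-end cells, and in 43.0% and 5.31% of nuclei. 3 or more were detected in 7.27% and 36.8% of cells and in 3.57% and 39.7% of nuclei.

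Barcodes with too few transcripts to be kept also held RNA of these genes. Whether it came from outside cells was not tested. Barcodes of 10 to 100 transcripts, taken as background, had 5.30 counts per 10000 of RBFOX1 in cells and 7.70 in nuclei, close to the 5.59 and 7.98 of all placed barcodes. RBFOX1 at the progenitor end was lower than this background, at 2.94 and 1.82. RBFOX2 was at 4.35 and 4.71 in the background, above its levels at the progenitor end (3.27 and 3.30), as were ELAVL2 at 1.13 and 0.956 and NOVA2 at 0.708 and 0.530. NOVA1 was at 1.48 and 1.44, against 1.39 and 1.51 at the progenitor end. RBFOX3 was at 4.22 and 3.51 in the background against 4.47 and 4.00 in placed barcodes and 0.620 and 0.276 at the progenitor end. PTBP2 was at 4.27 and 4.08 in the background against 3.99 and 3.77 in placed barcodes, also above its 3.73 and 3.66 at the progenitor end. ELAVL3 was at 2.41 and 1.63 and ELAVL4 at 1.64 and 1.63, all above the levels of these genes at the progenitor end (1.80 and 1.20 for ELAVL3, 0.827 and 0.881 for ELAVL4). PTBP1 was lower in the background than in placed barcodes, 0.438 against 0.501 in cells and 0.157 against 0.258 in nuclei. The part of such background RNA in the levels of kept barcodes was not tested.

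Clusters, built without these 10 genes, gave a second view of where each was counted. The order markers could be used in building them, so this view is not independent of the index. A name ending in -like rests on marker genes, and clusters without 3 such markers stayed unnamed. There were 22 clusters of cells and 21 of nuclei, 20 of each with at least 100 barcodes. Highest and lowest levels given below are among these 20 of each library. RBFOX1 was highest in excitatory neuron-like clusters, at 14.5 counts per 10000 (14.3 to 14.7) in cells and 35.4 (34.8 to 36.0) and 27.5 (27.1 to 28.0) in 2 clusters of nuclei. Its lowest levels among the 20 clusters of cells were 1.62 (1.23 to 2.10) and 1.83 (1.75 to 1.92), and these intervals overlap. The first rests on 57 counts in a dividing cluster of 203 cells of which 1 well gave 88.2%. The second is that of a dividing radial glia-like cluster. All dividing cells together had 4.02 and all dividing radial glia-like cells 1.87. In nuclei the lowest levels, in a radial glia-like cluster (0.968, 0.885 to 1.06) and a dividing radial glia-like one (0.985, 0.903 to 1.07), overlap too.

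Outside the clusters named neuron-like, RBFOX1 was high in some clusters of other names or of none. A cortical hem-like cluster of 341 cells had 13.0 counts per 10000 (12.6 to 13.5) and a small choroid plexus-like cluster of 114 cells had 13.1 (12.5 to 13.8). An unnamed cluster of 1043 cells, with ALDH1A2 and RUNX1 among its 10 leading genes, had 12.8 (12.6 to 13.1), with 11.7% from its fullest well. A single well gave 61.6% of the hem-like cluster and 93.0% of the small choroid plexus-like one, so these levels rest largely on 1 well each, and the leading genes of the small choroid plexus-like cluster were ATP13A5 and SPTLC3 rather than the choroid plexus markers that named it. The larger choroid plexus-like cluster of 1247 cells, of which the fullest well gave 20.0%, had 4.26, and all 1361 choroid plexus-like cells together had 4.92 counts per 10000, both below the 5.59 of all placed cells. The 351 choroid plexus-like nuclei had 9.75 (9.43 to 10.1), where 30.2% came from 1 well. An unnamed cluster of 683 nuclei led by NXPH1 had 15.5 (15.1 to 15.9). Its median index was 0.965, with 75.8% of its barcodes in range 5, so by the index it lay at the neuron end. RBFOX3 in the same groups was 1.18 in the hem-like cells, 0.735 in all choroid plexus-like cells and 0.335 in choroid plexus-like nuclei. The small choroid plexus-like cluster of cells had 1.94. In the unnamed clusters RBFOX3 was 3.91 (1043 cells) and 3.77 (683 nuclei), nearer the 4.47 and 4.00 of all placed cells and nuclei.

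RBFOX3, ELAVL2 and ELAVL4 were all highest in 1 cluster of cells. This cluster of 915 barcodes, 1 of 2 named intermediate progenitor-like, was led by EBF2, NHLH1 and EOMES. It passed the marker limits for 3 genes of that type and also for 4 of excitatory neurons, so the name does not set it apart from early neurons. It had the highest level of all 3: 13.0 counts per 10000 of RBFOX3 (12.7 to 13.2), 3.80 of ELAVL2 (3.66 to 3.93) and 4.21 of ELAVL4 (4.07 to 4.35). It was also highest for ELAVL3 at 4.59 and NOVA2 at 1.22, though their intervals overlap those of neuron-like clusters. The second intermediate progenitor-like cluster, of 458 cells, had lower levels: 7.72 of RBFOX3, 1.52 of ELAVL2 and 2.39 of ELAVL4. In the excitatory neuron-like cluster RBFOX3 was 8.38, ELAVL2 0.872 and ELAVL4 2.08. Among neuron-end cells, the intermediate progenitor-like ones of both clusters had 15.6 counts per 10000 of RBFOX3 and 2.69 of RBFOX1, while the excitatory neuron-like ones had 8.36 and 16.0. These 2 classes were 7.75% and 33.8% of the neuron-end cells. Unnamed clusters held 45.8%, with 6.68 counts per 10000 of RBFOX3 and 5.79 of RBFOX1. At the same end of the index, RBFOX3 was thus higher and RBFOX1 lower in the intermediate progenitor-like cells than in the excitatory neuron-like ones.

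Nuclei had a like contrast within the neuron-like classes. 2 excitatory neuron-like clusters, of median index 0.741 and 0.807, had the highest RBFOX3, 19.0 (18.5 to 19.5) and 15.9 (15.5 to 16.2) counts per 10000. The 2 with the highest RBFOX1 had median indices of 0.924 and 0.893. The cluster of median index 0.741 has EBF2, CNTN2 and RGMB among its leading genes, as the intermediate progenitor-like cluster of cells does, though it was named excitatory neuron-like from 3 markers. ELAVL2 was 5.00 (4.75 to 5.26) in it, 4.71 (4.44 to 5.00) in an unnamed cluster led by EOMES with a median index of 0.389 and 4.56 (4.04 to 5.12) in Cajal-Retzius-like nuclei. These intervals overlap, so the order of the 3 is not resolved. ELAVL4 was 4.70 in the first of these clusters and 4.75 in the second, with overlapping intervals.

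Cajal-Retzius-like barcodes, the reelin-producing early cells of the cortical surface, had high NOVA1, and their ELAVL2 was high but matched or exceeded elsewhere. NOVA1 was at 3.42 counts per 10000 (3.15 to 3.71) in 157 Cajal-Retzius-like cells, its highest, and at 4.06 (3.58 to 4.59) in 107 such nuclei. An unnamed cluster of 683 nuclei led by NXPH1, EBF1 and EBF3 had 4.18 (3.96 to 4.41). Sub-libraries varied widely for these small groups, with an SD of 1.51 in cells and 1.36 in nuclei. ELAVL2 was 2.95 in the Cajal-Retzius-like cells and 4.56 in the nuclei. The level of NOVA1 over all placed barcodes was 1.48 in cells and 1.59 in nuclei, so these classes lay above an even course along the index.

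Among the clusters of cells with at least 100 barcodes, PTBP1 was highest in 1 of 2 dividing radial glia-like ones, at 0.763 counts per 10000 (0.710 to 0.819). Of the 2 radial glia-like clusters, that of 2070 cells followed at 0.652 (0.612 to 0.694). That of 968 cells, of median index 0.448, had 0.423 (0.383 to 0.467). Its RBFOX1 (6.54) and RBFOX3 (5.99) were above the 5.59 and 4.47 of all placed cells. The other dividing radial glia-like cluster had 0.540 (0.482 to 0.603), and both together had 0.680. At the same size limit, PTBP1 was lowest in Cajal-Retzius-like and excitatory neuron-like cells at 0.328 (0.248 to 0.426) and 0.335 (0.307 to 0.365). The unnamed cluster of 1043 cells had 0.342 (0.298 to 0.391). The choroid plexus-like cluster of 114 cells had 0.367 (0.267 to 0.493). These intervals overlap, so low PTBP1 was not particular to neuron-like cells. In nuclei the highest level, 0.567 (0.421 to 0.747), rests on 50 counts in a radial glia-like cluster led by heat-shock genes, and all dividing radial glia-like nuclei together had 0.337. The lowest nuclei were excitatory neuron-like, at 0.149 (0.112 to 0.194). Over clusters of at least 100 barcodes, PTBP2 ranged from 2.15 to 4.93 counts per 10000 in cells and from 2.10 to 4.87 in nuclei. A choroid plexus-like cluster was lowest in both, in cells the one of 1247 barcodes. Among clusters of that size, the same ones were also lowest for NOVA2 (0.390 and 0.129), NOVA1 (0.872 and 0.829) and ELAVL3 (0.724 and 0.207). These are descriptions of clusters, with no test.

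**Figure D4:**
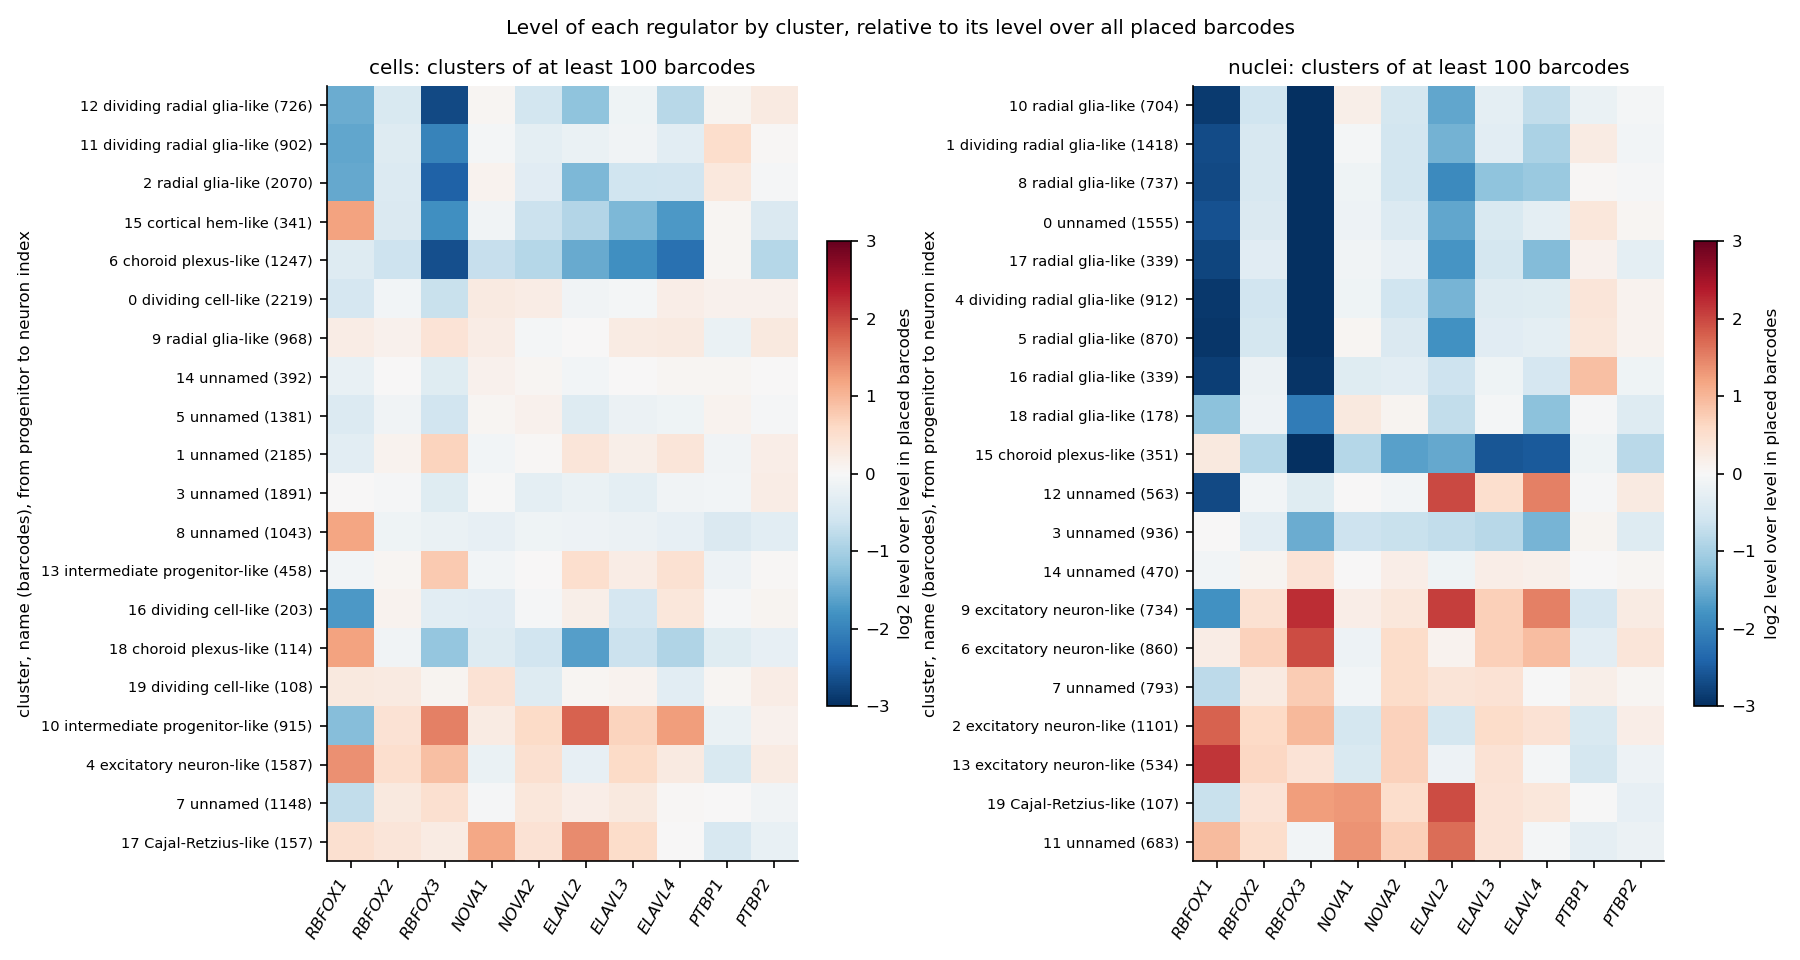
Level of each gene in the 20 clusters of cells and the 20 of nuclei with at least 100 barcodes, ordered by their median marker index, as log2 of the level over the level of all placed barcodes (0.1 added to both), with colours limited at 3 in either direction. RBFOX1 is strong in the excitatory neuron-like cluster of cells, in the hem-like one, in the choroid plexus-like one of 114 cells and in an unnamed one of 1043 cells, but not in the choroid plexus-like one of 1247 cells, whereas RBFOX3, ELAVL2 and ELAVL4 peak in 1 of the 2 intermediate progenitor-like clusters of cells, that of 915 barcodes.

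The profiles over clusters were also compared with those of all 7497 genes at 0.2 or more counts per 10000 in both libraries. Likeness was the mean of Pearson's r over the 22 clusters of cells and the 21 of nuclei, on log2(level + 0.1), as a description: clusters of a library share its RNA and differ in depth. RBFOX3 was most like NFASC (0.96), PLXNA4 (0.95) and SLIT1 (0.93), and RBFOX2 most like CELF3 (0.96), NFASC (0.94) and RPS6KL1 (0.94). RBFOX1 was most like LRRTM4 (0.89), FLRT2 (0.88) and PCDH15 (0.87). NOVA2 was most like NRXN2 (0.92), ATCAY (0.90) and MTMR4 (0.89), and NOVA1 had lower values, with EBF3 (0.70), EPB41 (0.69) and ZNF804A (0.68).

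ELAVL3 was most like EVL (0.91), KIF3C (0.91) and SOGA3 (0.90), and ELAVL4 most like MAP4K4 (0.88), FYN (0.87) and PTPRS (0.86). ELAVL2 was most like ENSG00000283982 (0.96), a noncoding gene on the same strand at chr9:23500691-23672387, which begins 17.7 kb beyond the end of ELAVL2, and then NOL4L (0.88) and RGMB (0.85). PTBP1 was most like PHF8 (0.86), RNPS1 (0.82) and SERBP1 (0.82), and PTBP2 most like ELOVL6 (0.84), CERS6 (0.83) and PHF14 (0.82). Between members the highest values were 0.88 for RBFOX2 with RBFOX3 and 0.86 for RBFOX2 with NOVA2, while RBFOX1 had 0.49 with RBFOX3 and -0.59 with PTBP1. RBFOX1 with ELAVL2 gave -0.29 in cells and 0.33 in nuclei, opposite signs with a mean of 0.02.

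Levels can be set between genes only per length. The genes span from 15.3 kb (PTBP1, chr19:797075-812327) to 2474 kb (RBFOX1, chr16:5239802-7713340) in GENCODE 44. Per 100 kb of span, the level at the neuron end of the cells was 13.7 counts per 10000 for ELAVL3, 4.24 for PTBP2, 2.82 for NOVA2, 2.55 for PTBP1, 2.18 for RBFOX2, 1.56 for RBFOX3, 1.15 for ELAVL4, 1.01 for ELAVL2, 0.976 for NOVA1 and 0.416 for RBFOX1. The longest gene, RBFOX1, was thus last per span, and the neighbours ELAVL2 and NOVA1 (0.973 to 1.05 and 0.940 to 1.01) and NOVA2 and PTBP1 (2.70 to 2.95 and 2.36 to 2.74) had overlapping intervals.

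In nuclei the same values were 8.16 for ELAVL3, 3.80 for PTBP2, 2.46 for NOVA2, 2.42 for RBFOX2, 1.58 for RBFOX3, 1.33 for ELAVL2, 1.20 for NOVA1, 1.19 for ELAVL4, 1.14 for PTBP1 and 0.824 for RBFOX1, where NOVA2 with RBFOX2, and NOVA1, ELAVL4 and PTBP1 with each other, overlapped. Per kb of exon the order differed: in cells ELAVL3 (0.858) and RBFOX3 (0.806) came first and PTBP1 (0.0517) last. In nuclei RBFOX1, last per span, came first per kb of exon (1.29, 1.28 to 1.31). RBFOX3 (0.815) followed it there, and PTBP1 (0.0232) was again last. Which length fits depends on how many counts come from introns, which the tables do not record.

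The remaining genes span chr22:35738736-36028824 for RBFOX2, chr17:79089345-79611051 for RBFOX3, chr14:26443090-26598033 for NOVA1, chr19:45933734-45974044 for NOVA2, chr9:23690104-23826337 for ELAVL2, chr19:11451326-11481046 for ELAVL3, chr1:50024029-50203772 for ELAVL4 and chr1:96721665-96823738 for PTBP2. Genes that overlap a member hold at most 0.785% as many counts as the member, for ELAVL3 in cells. The processed pseudogene PTBP1P had 3 counts in cells and 0 in nuclei.

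The wider set of splicing regulators held genes with either sign. Of 21 other regulators with a role in tissue-specific splicing or RNA binding, 20 could be compared in cells and 19 in nuclei, and 9 were at least 2-fold higher and 3 lower at the neuron end in both, beside 8.74% and 11.9% of all genes higher and 12.0% and 16.1% lower. Those shares of all genes are for each library alone, and the share called in both at once was not computed. In each library alone, 3 of 20 were lower in cells and 4 of 19 in nuclei, near the shares of all genes. In nuclei MSI2 was also lower, at a log2 ratio of -1.12 against -0.98 in cells. The median log2 ratio of the list was 0.31 in cells and 0.81 in nuclei.

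SRRM4, the activator of neuronal microexons, had log2 ratios of 3.79 (3.68 to 3.90) in cells and 5.10 (4.94 to 5.26) in nuclei, and its relative SRRM3 3.37 and 4.72. The CELF genes, whose proteins bind GU-rich RNA, were higher as well, CELF3 by 4.05 and 5.18, CELF4 by 3.89 and 5.48, CELF6 by 2.79 and 3.48, CELF2 by 1.50 and 1.93 and CELF5 by 1.37 and 1.53 on the log2 scale, while CELF1, at 0.36 and 0.39, was not 2-fold apart. KHDRBS3 (2.24 and 3.26) and PTBP3 (1.21 and 1.59) completed the 9. PTBP3, a paralog of PTBP1, had the opposite sign to it.

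The 3 that were lower at the neuron end in both libraries were QKI, a regulator known from glia, at -1.60 (-1.65 to -1.56) and -1.86 (-1.90 to -1.82), MSI1, the RNA-binding protein Musashi of neural stem cells, at -1.94 and -2.38, and MBNL3 at -1.91 and -2.88. Each was further from 0 than PTBP1. ELAVL1 (HuR), the ubiquitous relative of the neuronal ELAVL genes, had -0.15 (-0.25 to -0.06) and -0.45 (-0.57 to -0.32).

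General splicing factors, a list of 17 SR proteins, hnRNP proteins and core components, gave 0 genes at 2-fold in cells in either direction, with log2 ratios from -0.97 to -0.19 and a median of -0.37. In nuclei 4 were lower, SRSF2 (-1.45), HNRNPA2B1 (-1.15), TRA2B (-1.08) and SRSF7 (-1.01), with a median of -0.58 and values from -1.45 to -0.03, and 16.1% of all genes in nuclei were as much lower. All 17 thus had a negative ratio in each library, and the PTBP1 ratios of -0.74 and -0.81 lie within their range.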

How the data were processed

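The authors demultiplexed 8 sub-libraries of cells and 2 of nuclei, ran each through the Parse Biosciences pipeline, spipe 1.0.3, with GRCh38 (Ensembl 108) and deposited unfiltered transcript counts per barcode and gene, with no normalization and no removal of background RNA. From these counts, barcodes were filtered as in the study's limits for nuclei, applied to both libraries, placed by marker index, and counts were summed per range, cluster, sub-library and first-round well. For cells the study set other limits and removed contaminating RNA with DecontX, which was not done here. It states that the nuclei did not need this step. Levels are summed counts per 10000 transcripts. Ratios carry exact conditional intervals, levels exact Poisson intervals and shares Clopper-Pearson intervals. The condition of a barcode is not given in the sources used here, so no groups were compared and no p-values computed. Within wells, 0.5 counts were added.

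Clusters were built on 2000 variable genes without the members, the other regulators, the general splicing factors and DLG4. The order markers were not left out. The settings were 30 principal components, 15 neighbours and Leiden resolution 1 (scanpy 1.11.5 with scikit-learn 1.9.0 and igraph 0.11.9, random seed 0). Names were given where 3 or more of a type's markers reached 1.5-fold over the other barcodes and were found in 25% of the cluster, and where its leading genes did not go against the name. Scrublet marked 0 doublets, which is too few to have worked, so doublets stayed in and the highest scores (1009 cells and 427 nuclei) were left out as an alternative. Scripts ran in Python 3.11.15 with matplotlib 3.10.9, pandas 2.3.3, scipy 1.17.1, anndata 0.12.19 and numpy 2.4.6. Coordinates are from GENCODE 44, and promoter windows of 8 members (37 in all, each found in the genome at its place) from RefSeq tables. The steps were tested on simulated data.

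Named are the 10 members, the genes of the other lists that were 2-fold apart in both libraries, the order and cell type markers, and the 3 genes most like each member over clusters. Named beyond this rule, after their values were seen, were CELF1, ELAVL1 and MSI2, the 4 general factors, DLG4, and genes that lead clusters. Members and lists were chosen with earlier results of these data known.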

Additional observations from a re-analysis of the deposited data

How the results depend on the processing

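The counts of members 2-fold higher or lower at the neuron end were recomputed under 11 alternatives in cells and 10 in nuclei. Leaving out barcodes over 20000 transcripts, choroid plexus-like and unnamed clusters or, in cells, the hem-like cluster was chosen after the data were seen. Of 42 recomputed counts, 41 were equal to the reported one or within 1.5 times of it. The 42 include the counts of members 2-fold lower, which were 0 in every setting, where the limit of 1.5 times has no meaning. The exception was thinning every barcode of the cells to 1000 transcripts, which left 3 members higher (RBFOX1, RBFOX3 and ELAVL2) in place of 6, with NOVA2, ELAVL3 and ELAVL4 at log2 ratios of 0.60, 0.67 and 0.75. Thinning also altered which barcodes were placed, with 2003 and 1863 at the ends in place of 3178 and 2503, and the cause was not tested. Other limits moved single members across the 2-fold line. In cells the count was 7 with more than 5000 transcripts, where RBFOX2 joined, and 5 without barcodes over 20000 transcripts, where NOVA2 was lost. In nuclei it was 6 when thinned, with at least 10 marker counts or without the fullest well, and ELAVL3 was lost each time (0.96 to 1.17 over the alternatives). The count of members 2-fold lower stayed at 0 under all of these alternatives in both libraries. Of the 210 recomputed log2 ratios, 145 moved by no more than the counting error of the reported value and 65 by more. RBFOX1 ranged from 1.34 to 2.30 in cells and from 3.31 to 4.39 in nuclei, RBFOX3 from 2.46 to 3.98 and from 4.78 to 5.43, and PTBP1 from -0.92 to -0.62 and from -0.95 to -0.70. The sign was the same under all of them except for NOVA1 in nuclei, at -0.25 without choroid plexus-like and unnamed clusters, and PTBP2 in nuclei, at -0.01 with outer ranges of width 0.1. No paired analysis was possible because each library is 1 sample, its barcodes carry no group or replicate number, and no source used here ties wells to organoids, so the ratios within wells are counts and ranges without a test. Depth limits low counts, such as the 278 of PTBP1 at the neuron end of the nuclei and the 529 of RBFOX3 and 657 of ELAVL2 at their progenitor end.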
